A study of Caenorhabditis elegans with 19 samples.

Results

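Peaks of the transcription factor LIN-14 that lie nearest to a piRNA gene are described here. They are the entries of the 3 annotated tables whose gene name starts with 21ur-, the prefix that Caenorhabditis elegans uses for single piRNA loci. By that rule 1551 of 37018 annotated L1 peaks, 349 of 8333 annotated L2 peaks and 601 of 14675 sites compared between the stages belonged to piRNA genes. They carried 1154 different 21ur- names, against 15363 piRNA genes in the RefSeq gene table of assembly WBcel235, and each of these 1154 names is a piRNA gene there. The name comes from the nearest transcript start, so membership says where a peak lies and not that a piRNA gene is regulated.

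piRNAs are small RNAs of the germline that guide the Argonaute protein PRG-1 to foreign and transposon transcripts. In C. elegans they are also called 21U-RNAs. Each is made from its own short RNA polymerase II transcript, and most of their genes sit in broad clusters on chromosome IV, among and inside protein-coding genes. LIN-14 is a nuclear factor that specifies early larval fates, and its amount is known to drop as larvae leave the L1 stage.

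The chromatin came from whole larvae that carried the allele cc2841, which fuses GFP to the C terminus of LIN-14, so all tissues were mixed. L1 larvae were taken 8 ± 1 hours and L2 larvae 21 ± 1 hours after plating on food, about 600000 animals for a replicate, and GFP-binding beads were used for the ChIP. Both stages had 5 ChIP and 4 input libraries, and 1 ChIP library of untagged N2 larvae at L1 is not analysed here. The files hold 1 peak list per stage, made from merged libraries, and 1 comparison of the stages. There are therefore no values per library, depth per library is unknown, and the peak values below have no replicate error. The labels do not say whether replicates were separate cultures, so the spread behind the deposited p-values may be technical.

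The first question was where along the genome these peaks lay. Chromosome IV held 996 of the 1551 L1 peaks at piRNA genes (64.2%), 216 of the 349 L2 peaks (61.9%) and 393 of the 601 compared sites (65.4%). Of RefSeq piRNA genes, 95.8% are on chromosome IV, so the peaks were spread over the chromosomes more evenly than the genes are. The piRNA-assigned L1 peaks off chromosome IV numbered 151 on V, 133 on X, 98 on II, 92 on I and 81 on III. On each of these chromosomes they made up between 1.59% and 1.93% of the L1 peaks, against 17.8% on chromosome IV. Counted by gene, on the chromosome that RefSeq gives, 825 of 14714 piRNA genes of chromosome IV (5.61%) had an L1 peak. Off chromosome IV it was 294 of 649 (45.3%). Assignment to the nearest start gives a lone gene a longer stretch of DNA than a gene with close neighbours, and the effect of that on these 2 shares was not tested.

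Along chromosome IV the piRNA-assigned L1 peaks formed a pair of zones. They were few in the first 3 Mb, with 5, 1 and 3 peaks per Mb. They rose to 161 between 5 and 6 Mb and 122 between 6 and 7 Mb. Between 8 and 13 Mb the counts fell back to between 9 and 36 per Mb. A second zone had 80 peaks between 13 and 14 Mb, 155 between 14 and 15 Mb, 108 between 15 and 16 Mb, 82 between 16 and 17 Mb and 41 in the last stretch. Of all L1 peaks, piRNA genes took 52.8% between 5 and 6 Mb, 44.0% between 6 and 7 Mb, 66.2% between 14 and 15 Mb, 66.7% between 15 and 16 Mb and 52.9% between 16 and 17 Mb. All genes together had 305, 277, 234, 162 and 155 L1 peaks in these stretches, and between 235 and 452 per Mb in the stretches before 4 Mb and between 7 and 13 Mb.

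Windows of 4 to 7 Mb and 13 to 18 Mb, rounded outwards from the known clusters, held 782 of the 1551 L1 peaks at piRNA genes (50.4%, 95% Wilson interval 47.9 to 52.9). The intervals on shares cover counting error over peaks only. Counted on chromosome IV alone, 78.5% of the 996 piRNA-assigned L1 peaks lay in the windows. Of the L1 peaks of chromosome IV that were assigned to other genes, 1226 of 4598 did (26.7%). The windows follow the clusters of piRNA genes and members are named by the nearest start, so part of this difference is there by construction. The left window held 316 and the right window 466 of the piRNA-assigned peaks. L2 peaks and compared sites were placed alike, with 47.9% and 52.1% of the piRNA-assigned ones in the windows.

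**Figure D1:**
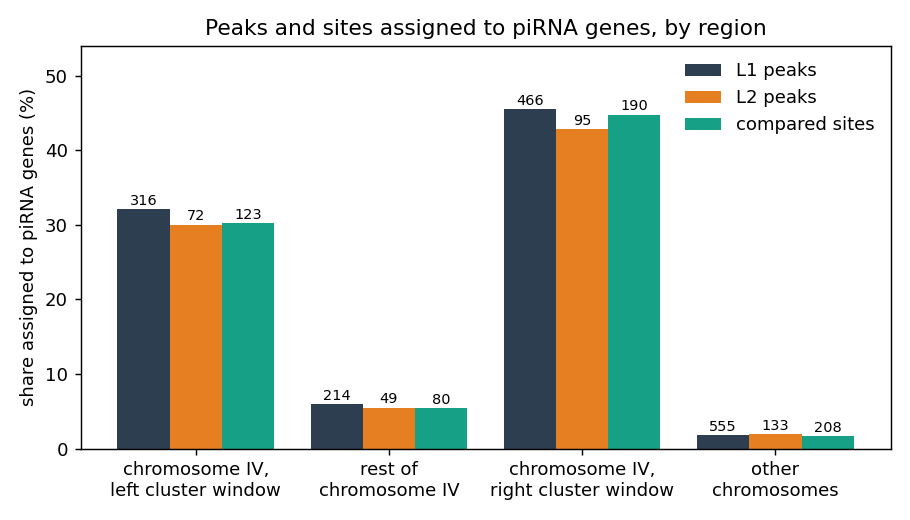
Share of L1 peaks, L2 peaks and compared sites (vertical axis, %) that were assigned to piRNA genes, in 2 cluster windows of chromosome IV, in the rest of that chromosome and on the other chromosomes; the number over each bar is the count of piRNA-assigned peaks or sites. The right window has the highest shares (45.5% of L1 peaks) and the other chromosomes the lowest (1.77% of L1 peaks).

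The peaks lay closer to the starts of piRNA genes than peaks of other genes lay to theirs. Of the 1551 L1 peaks, 220 covered the start (14.2%), 637 lay before it (41.1%) and 694 past it (44.7%). Peaks of other genes covered it in 10.7%, lay before it in 29.7% and past it in 59.6%. The median distance from the peak's edge to the start was 272 bp (interquartile range 65 to 989), against 848 bp for other genes. Within 1 kb lay 75.3% of the piRNA-assigned L1 peaks and 55.1% of the others. In L2 these shares were 71.3% and 48.4%. A piRNA gene is 20 or 21 bp long in the files, so nearly all of the space past its start is outside the gene, which is not so for a protein-coding gene. The distance also differed by region. Its median for piRNA-assigned L1 peaks was 101 bp in the right window and 165 bp in the left one. It was 613 bp in the rest of chromosome IV and 733 bp on the other chromosomes. For L1 peaks of other genes the medians were 498.5, 634, 816.5 and 864 bp, in the same order. On the other chromosomes, 58.2% of the piRNA-assigned L1 peaks and 54.5% of the others lay within 1 kb. Where piRNA genes lie close together, a short distance follows partly from the choice of members, and the size of that part was not tested.

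**Figure D2:**
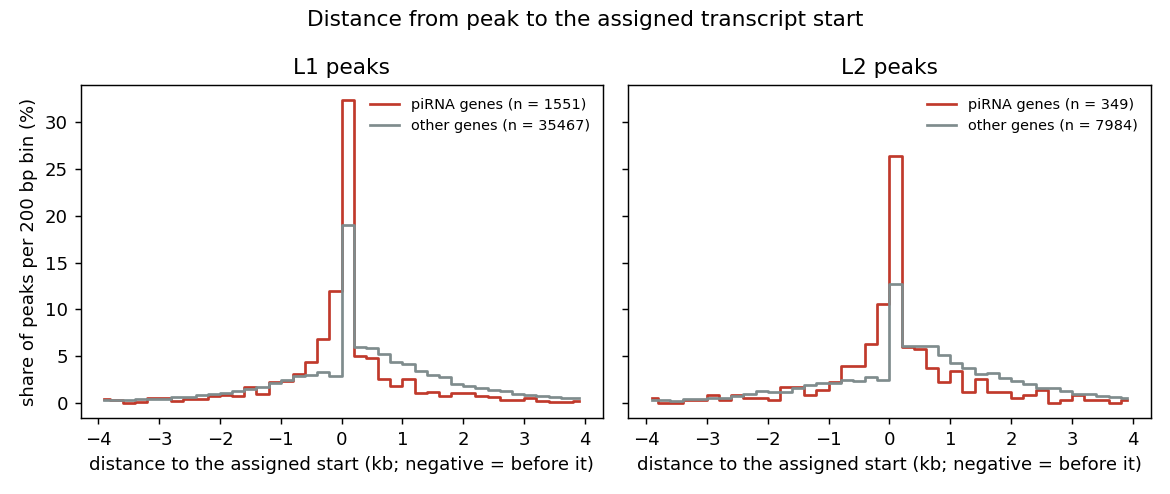
Share of peaks (vertical axis, % per 200 bp bin) by distance from the peak's nearest edge to the start of the assigned transcript (horizontal axis, kb, limited to 4 kb on either side), for L1 and L2 peaks of piRNA genes and of other genes. Distance 0, a peak over the start, falls in the first bin past the start, and the piRNA-assigned peaks sit in a narrower band around the start than the others.

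The starts of other transcripts near these peaks were counted next. The nearest start is that of a 21ur gene by the choice of members, so other starts are farther away by construction. Starts of transcripts other than 21ur genes were read from the same tables, which name 19314 of them and so do not cover every transcript. One of these lay within 1 kb of 168 of the 1551 L1 peaks (10.8%), 45 of the 349 L2 peaks (12.9%) and 74 of the 601 compared sites (12.3%). The median distance from a piRNA-assigned L1 peak to such a start was 3380 bp. The order of genes in RefSeq was used as well. On chromosome IV, 86.7% of piRNA genes have a piRNA gene as the next gene on both sides, against 53.9% of the 825 with an L1 peak. Inside the span of a protein-coding gene lie 37.0% of all piRNA genes of chromosome IV, against 67.8% of those with an L1 peak. Off chromosome IV the shares were 54.2% of all and 60.2% of those with an L1 peak. A piRNA gene counts as having a peak when its start is the nearest one, which gives a gene without close neighbours a longer stretch of DNA. These differences were not tested, nor was the effect of that rule on them.

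Some peaks carry a 21ur- name although they lie in the exon of a large gene, far from any start. The host genes named here were chosen after their values were seen. A peak within 3 kb of the assigned start is classed as promoter even where it lies inside a host gene. So were 1457 of the 1551 L1 peaks (93.9%), beside 88.9% of the L1 peaks of other genes. The counts here leave such peaks out. By this class, exons held 50 of the piRNA-assigned L1 peaks (3.22%) and introns 10 (0.645%). Among L1 peaks of other genes the shares were higher, at 6.72% and 1.69%. The giant exon 17 of unc-44, which encodes an ankyrin, held 10 of them (chromosome IV, 5991587 to 6000475), with fold enrichments over control of 1.57 to 2.15. In exons 23 to 26 of lrp-1, a gene of the LDL receptor family, 3 peaks (chromosome I, 7628812 to 7633587) reached 2.18 to 2.70. All 3 were assigned to 21ur-12960. Exons of cla-1, which encodes a protein of the synaptic active zone, held 4 (chromosome IV, 7595467 to 7605721), with fold enrichments of 1.48 to 1.83. Exons of unc-89, which encodes a giant muscle protein, held 3, and exons 4 and 5 of the cadherin gene hmr-1 held 2 with fold enrichments of 1.99 and 2.30.

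Most piRNA genes with an L1 peak had a single one, namely 867 of 1119 (77.5%), and 95 had 3 or more. The 1551 piRNA-assigned L1 peaks carried 1119 names, while the 37018 peaks of the whole list carried 18651. A gene with close neighbours takes in a shorter stretch of DNA by the nearest-start rule, and the effect of that on these counts was not tested. The most, 9 each, were at 21ur-13217, 21ur-14824 and 21ur-5573. The 9 peaks of 21ur-13217 stretched over chromosome III from 5390068 to 5399302, with fold enrichments of 1.54 to 2.11. Those of 21ur-14824 lay on chromosome I from 4055470 to 4065522, partly in exons of unc-89, with 1.68 to 2.55. Those of 21ur-5573 lay on chromosome IV from 5996163 to 6003587, all before the 21ur start and partly in unc-44, with 1.57 to 2.19. Some of their sites had less LIN-14 in the later stage, described further down.

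The next question was how strong the L1 peaks were. Fold enrichment is the peak caller's ratio of ChIP to control at the summit, and these values are the authors'. For piRNA genes its median was 1.79 (interquartile range 1.66 to 1.99, highest 3.04), and over the whole L1 list 1.81 (1.66 to 1.99, highest 3.57). The median width was 281 bp, against 292 bp over the list. A fold enrichment of 2 or more was reached by 371 of the 1551 (23.9%), beside 24.7% of the list. A -log10 q of 10 or more was reached by 444 (28.6%), beside 27.8% of the list. Peaks at protein-coding genes had a median of 1.81 and those at other noncoding RNA genes 1.80. By strength, then, the piRNA-assigned peaks lay close to the list as a whole. Within chromosome IV their medians were 1.80 in the left window, 1.79 in the right window and 1.76 in the rest, while peaks of other genes there had 1.85, 1.82 and 1.82.

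**Figure D3:**
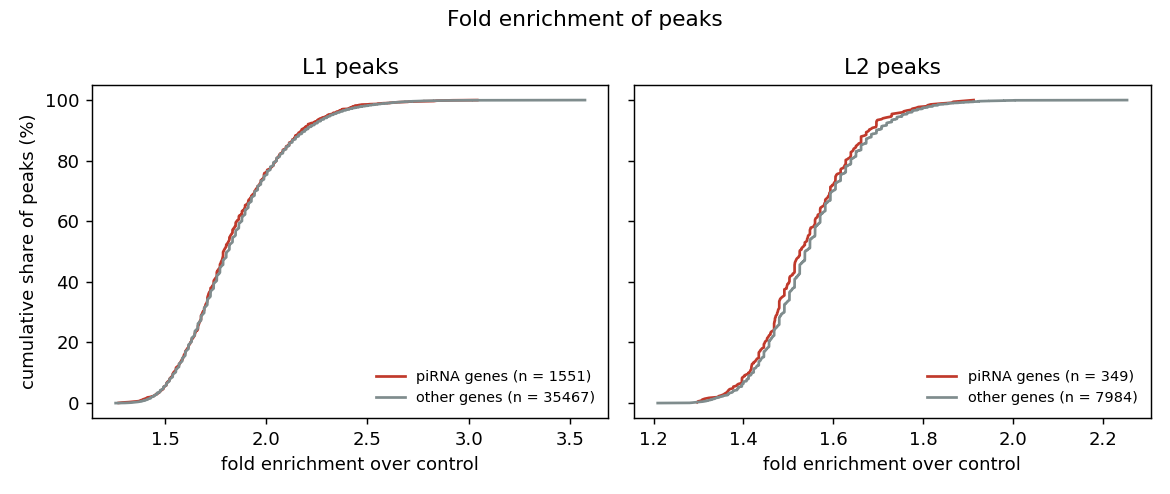
Cumulative share of peaks (vertical axis, %) by fold enrichment over control (horizontal axis), for L1 peaks and L2 peaks of piRNA genes and of other genes. The curves nearly coincide, with medians of 1.79 for piRNA genes in L1 and 1.53 in L2.

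The strongest L1 peak at a piRNA gene lay 183 bp past the start of 21ur-1166 (chromosome IV, 14317623 to 14318025), with a fold enrichment of 3.04. The nearest start of another transcript in the tables was 4418 bp away. The next was at 21ur-13277 (chromosome IV, 10390542 to 10391026), outside both cluster windows, with 2.92 and a distance of -686 bp, where a negative distance is before the start. A broad peak of 1148 bp lay before 21ur-11795 (chromosome IV, 5177571 to 5178718) and reached 2.90. At 21ur-9127 the peak covered the start (chromosome IV, 5737359 to 5737789; 2.84), with the nearest other start, that of the nuclear hormone receptor gene nhr-46, 12090 bp away. The peak of 21ur-15638 (chromosome IV, 17358819 to 17359499; 2.84) had a distance of -1720 bp to the 21ur start and was nearly as close, at 1907 bp, to the start of clec-202, a C-type lectin gene. The peak of 21ur-1023 (2.70) covered both its own start and that of another transcript.

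Off chromosome IV the strongest peak was at 21ur-14255 (chromosome X, 11039271 to 11040379; 2.83). It lay 1700 bp past the 21ur start and 2283 bp from the start of ldb-1, which encodes a LIM domain-binding cofactor, and the overlapping L2 peak (1.86) was assigned to ldb-1. On X, 21ur-12105 followed with 2.78 (17436729 to 17437499), on chromosome III 21ur-12567 with 2.74 (4071913 to 4072403), and on chromosome I 21ur-12960 with 2.70 (7628812 to 7630817) and 21ur-15386 with 2.64 (13817349 to 13817814). The peak of 21ur-12960 is the one in exon 23 of lrp-1, 8581 bp past the 21ur start.

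Around 21ur-1166, a stretch singled out after its values were seen, 10 L1 peaks at 10 different piRNA genes had their centres within 10 kb of that peak. Their fold enrichments in L1 were 1.99 at 21ur-8672, 1.82 at 21ur-9966, 2.36 at 21ur-15421, 2.70 at 21ur-1023, 2.43 at 21ur-13095, 2.46 at 21ur-2823, 2.40 at 21ur-13524, 3.04 at 21ur-1166, 2.06 at 21ur-1006 and 1.37 at 21ur-6447. Most of them exceeded the list's median of 1.81. They ran from 14309166 to 14320951 on chromosome IV, and the tables name 1 start of another transcript inside that run, the one under the peak of 21ur-1023. Inside the run lay 5 L2 peaks assigned to piRNA genes.

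The L2 list was shorter, and fold enrichments in it were lower. At piRNA genes the median fold enrichment was 1.53 (interquartile range 1.47 to 1.61, highest 1.91), against 1.54 (1.47 to 1.62, highest 2.25) over the list. The highest was again at 21ur-1166 (chromosome IV, 14317645 to 14317985), with 1.91. It was followed by 21ur-13277 with 1.89, 21ur-6424 with 1.87 (6356545 to 6357017), 21ur-10526 with 1.87 (5177921 to 5178631) and 21ur-2189 with 1.84 (5180006 to 5180537), all of chromosome IV. Further names among the first 10 were 21ur-7762 with 1.82, 21ur-3698 and 21ur-4426 with 1.81 each, 21ur-15396 with 1.79 and 21ur-12960 with 1.78. The L2 peak of 21ur-10526 lies in the L1 peak that was assigned to 21ur-11795, so a change of name between the stages need not be a change of place.

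The overlap of the lists was asked for next, at 1 bp or more. Of the 349 L2 peaks at piRNA genes, 341 overlapped an L1 peak (97.7%, 95.5 to 98.8), beside 97.8% of the L2 list. In 319 of these the L1 peak had the same 21ur- name, and in 22 it was assigned to another gene. Conversely, 329 of the 1551 L1 peaks overlapped an L2 peak (21.2%, 19.2 to 23.3), beside 20.9% of the L1 list. Both shares lay near those of all peaks. The share rose with L1 strength, from 6.73% in the lowest to 47.2% in the highest of 5 bins set on the whole L1 list, and from 5.07% to 52.8% over all L1 peaks. By name, 277 piRNA genes had a peak in both stages, which is 92.3% of those with an L2 peak and 24.8% of those with an L1 peak. The matching shares over all genes are not given here, so these are not read as particular to piRNA genes. The 10 genes with the strongest L1 peaks all had an overlapping L2 peak, as did 93.5% of all L1 peaks at least as strong.

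**Figure D4:**
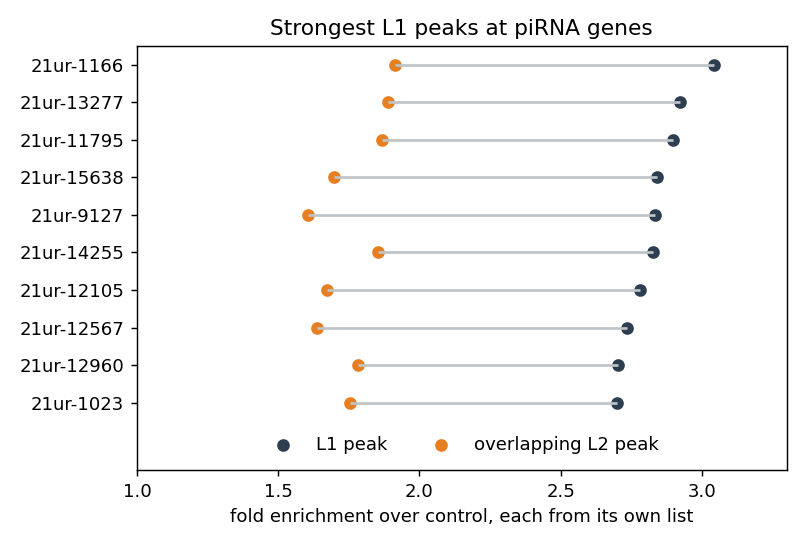
Fold enrichment over control (horizontal axis) of the strongest L1 peak of each of the 10 piRNA genes with the highest values, and of the L2 peak that overlaps it. L1 values run from 2.70 to 3.04 and L2 values from 1.61 to 1.91; each comes from its own list, and the distance between the points is not a test of change.

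Whether occupancy changed from L1 to L2 was read from the authors' deposited table, which gives log2 mean concentrations (normalised read counts) per stage, their log2 fold (L2 minus L1) and the FDR. Sites with an FDR (false discovery rate) over 0.3 are missing from it, and shares refer to the sites it does list. By the authors' deposited table, 252 of the 601 sites at piRNA genes were lowered in L2 with an FDR below 0.05 (41.9%, 38.0 to 45.9), beside 41.4% of all listed sites. Raised sites numbered 1, beside 0.123% of all listed sites. At an FDR below 0.01 the authors' deposited table had 15 lowered sites at piRNA genes (2.5%), beside 1.8%. Their median log2 fold was -0.44 (interquartile range -0.54 to -0.35), and over all listed sites -0.44 (-0.55 to -0.35), a drop of 26.3% in the authors' deposited table. Median log2 concentrations at piRNA genes were 6.01 in L1 and 5.57 in L2 in the authors' deposited table, against 6.03 and 5.58 over all listed sites. The lowered share of the piRNA-assigned sites was thus near that of the table as a whole. The log2 fold was below 0 at 599 of the 601 sites and at 14638 of all 14675 listed sites. Depth per library and normalization settings are unknown, so the part that scaling between the stages has in this drop was not tested. In whole larvae, fewer cells with LIN-14 on a site and less of it per cell cannot be told apart, and neighbouring piRNA genes share sites.

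**Figure D5:**
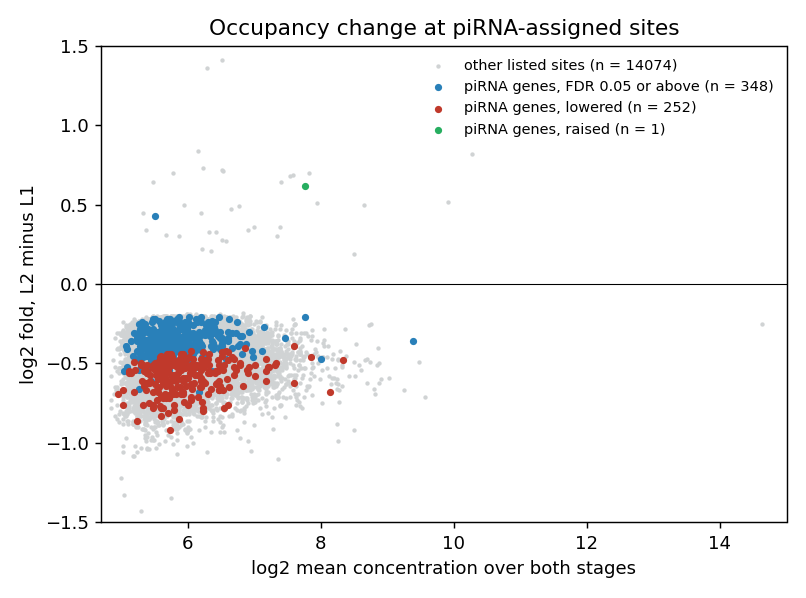
Log2 fold of occupancy, L2 minus L1 (vertical axis), against the log2 mean concentration over both stages (horizontal axis), for sites at piRNA genes in colour and all other listed sites in grey, from the authors' deposited table. Lowered piRNA sites number 252 and 1 is raised; few points lie near 0, and sites with an FDR over 0.3 are not in the table.

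Among the piRNA genes the lowest FDR was at 21ur-1163 (chromosome IV, 5499113 to 5499420), with log2 concentrations of 6.12 at L1 and 5.20 at L2 (log2 fold -0.92, FDR 0.00387 in the authors' deposited table). Its L1 peak had a fold enrichment of 2.19, and unc-5, the netrin receptor gene, has the nearest other start, 2059 bp away. At 21ur-13095, in the dense stretch around 21ur-1166, it went from 6.58 to 5.77 (-0.80, FDR 0.00465 in the authors' deposited table; 14314817 to 14315185). At 21ur-7883 it went from 6.53 to 5.79 (-0.74, FDR 0.00658 in the authors' deposited table; chromosome IV, 16005194 to 16005687), with the start of jac-1, a catenin gene, 624 bp away. These 3 sites lay close to a 21ur start, at distances of 32, -117 and 13 bp.

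Of the other 7 sites with the lowest FDR, 3 lay over 1 kb from the 21ur start. The site of 21ur-9017 (chromosome IV, 6707026 to 6707553; -0.71, FDR 0.00677 in the authors' deposited table) was 24385 bp before the 21ur start, in a stretch where the nearest other start in the tables was 24409 bp away. On X, 21ur-13607 (-0.86, FDR 0.00673; 7615708 to 7615926) and 21ur-14023 (-0.69, FDR 0.0076; 13102659 to 13103263) in the authors' deposited table had distances of -1100 and 1161 bp. The remaining names were 21ur-8466 (-0.78), 21ur-11043 (-0.68), 21ur-9960 (-0.85) and 21ur-14197 (-0.83), all of chromosome IV and with an FDR of 0.00838 to 0.00856 in the authors' deposited table. These were nearer to their starts, at distances of 260, -210, 490 and 57 bp. Of these 10 sites, 1 overlapped an L2 peak, that of 21ur-13095. An L2 peak was overlapped by 38.7% of all listed sites, and by 58 of the 264 that the authors' deposited table lists as lowered with an FDR below 0.01 (22.0%).

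The strongest L1 peaks were then followed into the comparison. In the authors' deposited table, 9 of the 10 piRNA genes with the strongest L1 peaks had a lowered site under that peak. Of all L1 peaks with at least the fold enrichment of the weakest of these 10, each of the 185 had a listed site, and 83.2% had a lowered one by the authors' deposited table. These genes were picked by a high L1 value, and L1 is one side of the comparison. Of the 3 genes with the most peaks, 21ur-13217 had 1 lowered site of 6, 21ur-14824 2 of 4 and 21ur-5573 2 of 5 in the authors' deposited table. Over all listed sites the lowered share was 41.4% in the authors' deposited table. At 21ur-1166 the log2 concentration fell from 6.67 to 6.12 (-0.55, FDR 0.0318 in the authors' deposited table), and at 21ur-12105 from 6.93 to 6.17 (-0.76, FDR 0.0146 in the authors' deposited table). The exception was 21ur-13277, with 6.80 and 6.33 (-0.47, FDR 0.0535 in the authors' deposited table). Under the peak of 21ur-1023 the site with the largest overlap, used for this count, is the one assigned to 21ur-14542. A site assigned to 21ur-1023 itself (14312650 to 14313654) overlaps that peak as well (-0.47, FDR 0.0341 in the authors' deposited table). Of the 10 genes with the strongest L2 peaks, 9 had a listed site under the peak, and 4 of these sites were lowered in the authors' deposited table. Over all L2 peaks of at least that strength with a listed site, 51.8% had a lowered one by the authors' deposited table. In the dense stretch around 21ur-1166, 6 of 7 sites passed as lowered by the authors' deposited table, beside 41.4% of all listed sites. That stretch was also picked by a high L1 value.

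The raised site was at 21ur-13604 (chromosome IV, 6469035 to 6469337), 456 bp past its start. Its log2 concentrations were 7.42 at L1 and 8.04 at L2 (log2 fold 0.62, FDR 0.0218 in the authors' deposited table). Its mean concentration was above that of 99.3% of listed sites, yet it overlapped no L1 peak and no L2 peak, and the nearest peaks of both lists, at 21ur-9504, were 1038 bp and 1007 bp away. The other site with a log2 fold above 0 did not pass: 21ur-15384 on chromosome V (6278189 to 6278438) had 5.28 and 5.71 (0.43, FDR 0.0777 in the authors' deposited table), with a fold enrichment of 1.48 in L1 and 1.57 in L2 at peaks over its start. The least negative of the rest was 21ur-12764 with -0.21 (FDR 0.283 in the authors' deposited table).

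The sites with the highest concentrations were wide. At 21ur-14912 (chromosome III, 5506932 to 5509713) log2 concentrations were 9.55 at L1 and 9.19 at L2 (-0.36, FDR 0.0553 in the authors' deposited table), and the site covered the start of another transcript as well. The lrp-1 exon site of 21ur-12960 had 8.55 and 8.07 (-0.48, FDR 0.0449), and the site of 21ur-14824 had 8.06 and 7.60 (-0.46, FDR 0.0315), both in the authors' deposited table. Concentration counts reads over the whole site, so it rises with width.

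The drop was of like size in each region. By the authors' deposited table its median on the log2 scale was -0.42 in the left window, -0.46 in the right window, -0.44 in the rest of chromosome IV and -0.43 on the other chromosomes. Lowered were 46 of 123 sites in the left window (37.4%), 85 of 190 in the right window (44.7%), 33 of 80 in the rest (41.2%) and 88 of 208 on the other chromosomes (42.3%) in the authors' deposited table. Sites of other genes in the left and right windows were lowered in 49.3% and 49.6% in the authors' deposited table. In the rest of chromosome IV it was 42.2% and on the other chromosomes 41.0% in the authors' deposited table. These shares were not tested against each other. The lowered share rose with concentration, from 33.1% in the lowest to 52.5% in the highest of 4 bins in the authors' deposited table, as it did over all listed sites (36.6% to 50.7%).

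Genes that make or use piRNAs, or act in small RNA amplification or secondary small RNA pathways, were looked up by name. Of 29 such genes in RefSeq, 24 had an L1 peak, 9 an L2 peak and 12 a listed site. Of the 19983 protein-coding genes in RefSeq, 68.9% had an L1 peak, 24.4% an L2 peak and 38.8% a listed site. Of their 17 sites 7 were lowered, at 6 genes, by the authors' deposited table, beside 41.4% of all listed sites. The 17 sites had a log2 fold of -0.38 at the median (range -0.78 to -0.20) by the authors' deposited table. At prg-1, the gene of the Piwi Argonaute, the log2 concentration went from 7.64 to 7.06 (-0.58, FDR 0.0239 in the authors' deposited table; chromosome I, 7586841 to 7588142). At parn-1, whose enzyme trims piRNA 3' ends, it went from 6.18 to 5.58 (-0.60, FDR 0.0196 in the authors' deposited table). The other 4 genes act in small RNA amplification or secondary small RNA pathways, namely mut-16, a scaffold of amplification (-0.78), csr-1 (-0.64) and hrde-1 (-0.57), which encode Argonautes, and znfx-1, a helicase gene (-0.51), in the authors' deposited table.

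Genes for piRNA transcription had no lowered site. The core factor genes prde-1 and snpc-4 had L1 peaks with fold enrichments of at most 1.68 and 1.83, and tofu-5 had 3 L1 peaks. None of these 3 genes had a listed site. The forkhead gene unc-130 had a stronger L1 peak (2.63), and its 2 sites did not pass (lowest FDR 0.14, log2 fold -0.36 in the authors' deposited table). For tofu-4, attf-6, tofu-1, tofu-2 and prg-2 the tables name no peak.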

How the data were processed

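ChIP-seq peaks of LIN-14::GFP in L1 and L2 larvae were used as deposited. The submitters' processing notes name the tools SAMtools, BWA, MACS2, ChIPseeker and DiffBind. Tool versions, normalization settings and the build were not given in the sources used here. Peaks were called on the merged libraries of each stage after a filter and the removal of outliers, per the file headers. The deposited peak lists give each peak a score, a fold enrichment ratio over control and a -log10 q-value. The authors' deposited comparison gives log2 concentrations, a log2 fold, a p-value and an FDR. The annotated tables lack 12 L1 and 3 L2 peaks (the first of each list and those of the mitochondrial chromosome).

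Members were taken by the 21ur- prefix. Positions are as deposited, with the first base as 1, in gene models that differ from WBcel235: of 1119 piRNA genes with an L1 peak, 9 start at the same base in both, and 16 names lie on another chromosome than in RefSeq. RefSeq was used for names, biotypes and the order of genes only. Overlaps, medians and counts were computed with Python 3.11.15, NumPy 2.4.6 and pandas 2.3.3, Wilson intervals with SciPy 1.17.1, figures with matplotlib 3.10.9; the overlap code was tested on simulated intervals. The FDR is the authors' own over all their sites, and no test was added. The members, lists and thresholds were chosen with earlier results of these data known. Named are the 10 piRNA genes with the highest fold enrichment per stage, the 10 with the lowest FDR, raised sites, the 3 with the least negative fold, the highest concentration and the most peaks, and 5 off chromosome IV, unless stated otherwise. Sequences are not shown, since no sequence file was used here.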

Additional observations from a re-analysis of the deposited data

How the results depend on the processing

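The alternatives changed the size of some values. Most of the values are counts, shares or medians of called peaks, which have no direction that could reverse. The median log2 fold, which has one, stayed negative. Since 599 of the 601 sites have a log2 fold below 0, the alternatives could hardly have reversed it. Smaller windows of 5 to 7 and 14 to 17 Mb held 40.5% of the piRNA-assigned L1 peaks, where 50.4% lay in the wider ones, and the wider ones held 55.4% of the peaks with a -log10 q of 10 or more. Overlap of L1 with L2 peaks at piRNA genes was 15.0% with a reciprocal overlap of 50% and 43.4% among peaks of fold enrichment 2 or more. The median L1 fold enrichment was 2.11 at a -log10 q of 10 or more. Within 1000 bp of the 21ur start the median L2 fold enrichment was 1.52 and the median log2 fold -0.45. Lowered sites at piRNA genes in the authors' deposited table numbered 15 at an FDR below 0.01 and 394 at an FDR below 0.1 (65.6%, beside 67.9% of all listed sites). Raised sites by DiffBind in the authors' deposited table numbered 0 and 2 at these thresholds, with 2 at an unadjusted p under 0.05. Without sites that have another start within 1000 bp, 223 of 527 passed as lowered (42.3%) by the authors' deposited table, and with 1 site per gene 208 of 497 (41.9%).

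No paired analysis was possible because the files hold no values per library; replicates could not be left out for the same reason. The planned search of 21ur promoters for their upstream motif was not run, since no promoter sequences were at hand. Peaks are weak and their depth is unknown.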

Other observations

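A few piRNA genes were named in L2 at places without an L1 peak. There were 8 such L2 peaks among 349, with fold enrichments of 1.38 to 1.52, below the median of the L2 list. They were about as rare as in the whole list, since 97.7% of the piRNA-assigned and 97.8% of all L2 peaks overlapped an L1 peak. The highest were at 21ur-14517 (chromosome IV, 8317994 to 8318205; 1.52) and 21ur-855 (chromosome IV, 5862711 to 5862890; 1.51), the second 47 bp before the 21ur start. Both are weak, and the L1 list was much longer.

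The names 21ur-10221, 21ur-13662 and 21ur-8488 each stood for 2 loci in the tables. For 21ur-10221 these were on chromosomes I and II, for 21ur-8488 on II and X, and for 21ur-13662 both on IV. A 21ur- name alone therefore does not fix a place in these files.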
